A study of Homo sapiens with 24 samples.

Results

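The genes described here are 10 human genes of zinc and metal handling: 7 metallothionein genes (MT1E, MT1F, MT1G, MT1H, MT1M, MT1X and MT2A), the metal-responsive transcription factor gene MTF1, the zinc exporter gene SLC30A1 and the zinc importer gene SLC39A8. They were taken by symbol from a table of 38735 named genes. All 10 were present, each on 1 entry, and 7 of the 10 had a mean of at least 10 normalized counts over the 24 libraries and were among the 13900 genes tested. MT1G, MT1M and MT1H fell below that level and are described without a place in the counts of tested genes.

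Poly-A RNA was sequenced from THP-1 cells, a human cell line from a monocytic leukaemia, after differentiation to macrophage-like cells with 100 nM of the phorbol ester PMA for 24 h. All 4 groups of 6 libraries share that step and the one cell line. DCVC_LPS cells had 5 µM S-(1,2-dichlorovinyl)-L-cysteine for 24 h and then, in fresh medium, 100 ng/mL lipopolysaccharide for 4 h. LPS cells had the 4 h of lipopolysaccharide after medium alone, DCVC cells had the 24 h of DCVC alone, and Control cells had medium only. DCVC is a cysteine conjugate formed from the solvent trichloroethylene, and LPS is an outer-membrane component of gram-negative bacteria that macrophages sense through TLR4. Each group holds replicate letters A to F. The labels do not say whether these are separate cultures, so that p-values measure the spread between these libraries. Libraries also resemble each other within the letter pairs A and B, C and D, and E and F. Fewer than 6 per group may therefore be independent, which also limits counts such as 6 of 6 letters.

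Metallothioneins are small cysteine-rich proteins that bind zinc and copper ions and buffer the free zinc of the cell. The transcription factor MTF-1 senses zinc and switches on metallothionein genes and SLC30A1 by binding metal response elements in their promoters. ZnT1, the SLC30A1 product, moves zinc out of the cell, and ZIP8, the SLC39A8 product, moves it into the cytosol. Macrophages are known to shift zinc between compartments when they meet bacterial products, and metallothionein genes and SLC39A8 are known to be induced there.

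Libraries held 18478618 to 30107819 reads in named genes. Values are normalized counts, and their totals per library averaged 21831254 in DCVC_LPS, 29427331 in LPS, 17774466 in DCVC and 21135356 in Control. Scaling every library to an equal total instead moved the median log2 change of all tested genes from -0.03 to -0.50 for LPS minus Control, from -0.03 to 0.22 for DCVC minus Control, from -0.07 to 0.36 for DCVC_LPS minus LPS and from -0.03 to -0.33 for DCVC_LPS minus DCVC. Of 10 macrophage and monocyte markers, 9 to 10 reached a mean of 10 in every group, with summed levels of 46584 to 50900 in DCVC_LPS, 48251 to 51415 in LPS, 59080 to 66952 in DCVC and 86130 to 98624 in Control. None of 4 T cell or 4 epithelial markers did in any group, with CD2 at 0 reads in all 4 groups. Among B cell markers PAX5 did in all groups, at 11.7 to 31.6 in DCVC_LPS, 97.8 to 269 in LPS, 13.7 to 38.1 in DCVC and 16.7 to 32.4 in Control. Of 4 fibroblast markers COL1A1 and PDGFRA did, with sums of 67.7 to 117 in DCVC_LPS, 327 to 489 in LPS, 45.1 to 81.6 in DCVC and 297 to 358 in Control. The part of these marker shifts in the results was not tested. In bulk RNA, fewer cells and less RNA per cell cannot be told apart.

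Seen together, LPS raised 4 of the 7 tested genes and lowered 1. MT2A, MTF1, MT1X and SLC39A8 rose and SLC30A1 fell, where 37.8% of all tested genes rose and 40.6% fell. DCVC alone raised 0 and lowered 2, MTF1 and MT1E, against 27.5% raised and 32.2% lowered among all genes. In DCVC_LPS minus LPS, SLC30A1 rose and 5 of 7 fell, namely MT2A, MTF1, MT1F, SLC39A8 and MT1E, against 33.3% raised and 39.4% lowered. In DCVC_LPS minus DCVC, MTF1 and MT2A rose and MT1F fell, against 29.9% raised and 32.2% lowered. The interaction, the LPS change after DCVC minus that after medium, passed for 4 of the 7: it was above 0 for SLC30A1 (22% of all genes) and below 0 for MT2A, MT1F and SLC39A8 (23.7%). After scaling to equal totals 2 of the 7 rose and 1 fell with LPS, and 2 rose and 2 fell in DCVC_LPS minus DCVC. Of all 13900 genes, LPS then raised 3118 and lowered 8275. In DCVC_LPS minus DCVC 2263 of them then rose and 7322 fell. With the replicate letter as a block, 4 of the 7 fell with DCVC alone, where 5105 of the 13900 genes fell. A call is an adjusted p under 0.05 in limma (Benjamini-Hochberg over 13900 genes), changes are on log2(normalized count + 1) with their SE, and levels are mean ± SD over 6 libraries. The median log2 change of the 7 was 0.78 for LPS minus Control, -0.54 for DCVC minus Control, -0.63 for DCVC_LPS minus LPS, 0.49 for DCVC_LPS minus DCVC and -0.31 for the interaction. Over all genes these medians were -0.03, -0.03, -0.07, -0.03 and 0.02. Among 7 genes such shares are coarse, and the comparisons share groups: LPS minus Control and DCVC minus Control share the Control libraries, and DCVC_LPS minus LPS shares the LPS libraries with LPS minus Control.

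**Figure D1:**
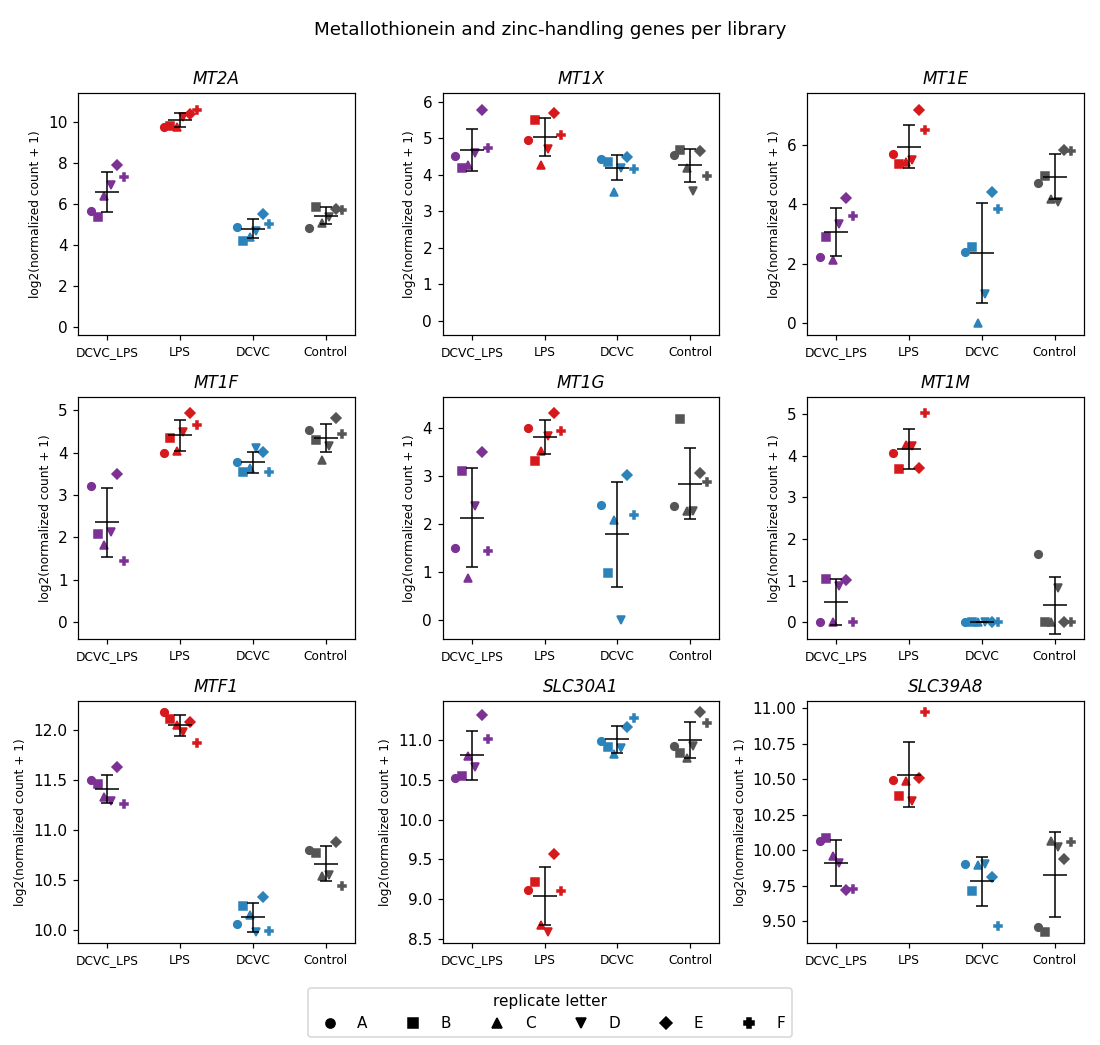
Level of 9 of the 10 genes in each library, as log2(normalized count + 1) on the vertical axis, by group on the horizontal axis; symbols are replicate letters and black bars the mean ± SD of 6 libraries. MT1H is not drawn because it had 0 reads. MT2A, MTF1 and MT1M stand highest in LPS, where SLC30A1 stands lowest.

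MTF1, the zinc sensor that drives the metallothionein genes (chromosome 1, minus strand, 37809567 to 37859620), had 4639, 4424, 4232, 4046, 4310 and 3741 normalized counts in LPS libraries A to F, against 1786, 1747, 1491, 1497, 1882 and 1394 in Control. Every LPS library stood above every Control library. The means were 4232 ± 311 in LPS and 1633 ± 197 in Control, a log2 change of 1.38 ± 0.08 (limma, adjusted p = 7.3e-14). DCVC libraries A to F had 1066, 1212, 1138, 1011, 1292 and 1020, all below Control, with a log2 change of -0.54 ± 0.08 (adjusted p = 4.8e-06). Within letters E and F alone this change was -0.50 with an adjusted p of 0.0578, and within the other letter pairs it was -0.64 and -0.48. DCVC_LPS libraries A to F had 2887, 2817, 2572, 2505, 3172 and 2459, which lay below all LPS libraries (-0.63 ± 0.08, adjusted p = 2.03e-07) and above all DCVC libraries (1.28 ± 0.08, adjusted p = 1.08e-12). On the deposited scale the 4 groups of MTF1 values did not overlap and ran, from low to high, DCVC, Control, DCVC_LPS and LPS. After scaling to equal totals, the DCVC_LPS libraries had 2514 to 3339 and overlapped the LPS libraries at 2963 to 3504, and the DCVC libraries had 1282 to 1645 and overlapped the Control libraries at 1545 to 1951. The changes were then -0.20 for DCVC_LPS minus LPS (adjusted p = 0.026), -0.29 for DCVC minus Control (adjusted p = 0.00308) and 0.90 for LPS minus Control. The interaction was -0.10 ± 0.12 (adjusted p = 0.532), and it passed within letters C and D only (-0.23, adjusted p = 0.043).

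Metallothionein genes lie together on chromosome 16, where GENCODE 29 on GRCh38 places 16 genes with an MT symbol between 56565049 and 56684196, a stretch of 119 kb. MT2A, the metallothionein II gene (ENSG00000125148.6, plus strand, 56608199 to 56609497), showed the steepest rise of the tested members. It had 871, 895, 881, 1214, 1336 and 1538 normalized counts in LPS libraries A to F, against 27.3, 56.3, 33.1, 40.3, 53.1 and 50.7 in Control. No LPS library was near a Control library, and the mean level was 25.8-fold higher, at 1122 ± 283 in LPS and 43.5 ± 11.7 in Control (log2 change 4.67 ± 0.32, limma adjusted p = 1.53e-12). Within letters A and B, C and D, and E and F the change was 4.46, 4.78 and 4.76.

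After DCVC, MT2A still rose with LPS but to a far lower level. DCVC_LPS libraries A to F had 50.2, 40.9, 82.8, 122, 236 and 160 normalized counts, against 28.96, 17.6, 20.3, 24.96, 45.3 and 32.1 in DCVC. The DCVC_LPS library was higher for 6 of 6 letters, although the ranges overlap (log2 change 1.80 ± 0.32, adjusted p = 3.2e-05). Set against LPS, the DCVC_LPS mean of 115 ± 74.0 was 0.103 of the LPS mean, with all 6 libraries below all LPS libraries (-3.49 ± 0.32, adjusted p = 7.36e-10). The interaction was -2.87 ± 0.46 (adjusted p = 1.7e-05), and it was -3.48, -2.67 and -2.45 within the 3 letter pairs. DCVC alone gave 28.2 ± 9.96 against 43.5 ± 11.7 in Control, a change of -0.63 ± 0.32 that did not pass (adjusted p = 0.0963) and passed with the replicate letter as a block (0.0179). Without DCVC library E it was -0.77 with an adjusted p of 0.0483, and with only the 2 groups fitted it passed too (limma adjusted p = 0.0389). Within letters A and B, C and D, and E and F it was -0.77, -0.68 and -0.43 (limma adjusted p = 0.0348, 0.0118 and 0.168). After equal totals it was -0.39 and did not pass (limma adjusted p = 0.305). It did not pass in edgeR (adjusted p = 0.177) or DESeq2 (adjusted p = 0.0962) either.

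MT1E, a metallothionein I gene (56625475 to 56627112), fell with DCVC alone. Its level was 4.26, 4.88, 0, 0.960, 20.4 and 13.4 in DCVC libraries A to F, against 25.2, 29.9, 17.0, 15.98, 55.2 and 54.3 in Control. The DCVC library was the lower one for 6 of 6 letters, and 5 of 6 lay below the whole Control range (-2.56 ± 0.57, limma adjusted p = 0.000482). With LPS alone the counts were 50.6, 39.9, 41.4, 44.2, 143 and 88.3 in libraries A to F. The LPS library was higher than its Control library for 6 of 6 letters, but the change of 1.01 ± 0.57 did not pass (adjusted p = 0.109). In limma it passed with the letter as a block (0.00782), a pseudocount of 8 (0.022), only the 2 groups (0.027) and within letters C and D (0.0297) and E and F (0.0288). It also passed in edgeR (0.043). It did not pass after equal totals (0.55, limma adjusted p = 0.405), within letters A and B (0.69, 0.138) or in DESeq2 (1.04, adjusted p = 0.0604). DCVC_LPS libraries had 3.65, 6.45, 3.35, 9.17, 17.4 and 11.1, all below all LPS libraries (-2.87 ± 0.57, adjusted p = 8.73e-05). Neither DCVC_LPS minus DCVC (0.70 ± 0.57, adjusted p = 0.297) nor the interaction (-0.31 ± 0.81, adjusted p = 0.785) passed. Within letters C and D DCVC_LPS minus DCVC was 2.25 (adjusted p = 0.00145), within A and B 0.08 and within E and F -0.24. Depth limits these values: DCVC libraries C and D held 0 and 1 read of MT1E, and all DCVC libraries together 49. Libraries E and F were above libraries A to D in 4 of 4 groups for MT1E, and in 3 of 4 groups for MT2A and for the summed metallothioneins.

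MT1F (56657694 to 56660698) had 8.22, 3.23, 2.51, 3.34, 10.2 and 1.71 normalized counts in DCVC_LPS libraries A to F, against 14.9, 19.2, 15.5, 21.5, 29.4 and 24.2 in LPS. All DCVC_LPS libraries were lower than all LPS libraries (-2.05 ± 0.29, limma adjusted p = 6.52e-07). They were also lower than all DCVC libraries, which had 10.7 to 16.3 (-1.42 ± 0.29, adjusted p = 0.000132). That second change missed the threshold within letters A and B (-1.03, adjusted p = 0.066) and E and F (-1.32, adjusted p = 0.104). LPS alone left MT1F at 20.8 ± 5.49 against 19.8 ± 4.74 in Control (0.06 ± 0.29, adjusted p = 0.85), and its sign was negative after scaling to equal totals (-0.39). DCVC alone gave 12.8 ± 2.38 and a change of -0.57 ± 0.29 that did not pass (adjusted p = 0.0864) and passed with the letter as a block (0.0454). The interaction was -1.48 ± 0.40 (adjusted p = 0.00425), which missed the threshold within letters A and B (-0.77, 0.359) and E and F (-1.48, 0.26).

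MT1X (56682424 to 56684196) rose slightly with LPS. LPS libraries A to F had 29.7, 44.4, 18.1, 25.1, 50.7 and 32.8 normalized counts, against 22.1, 24.8, 17.0, 10.7, 24.0 and 14.5 in Control, higher for 6 of 6 letters with overlapping ranges. The change of 0.78 ± 0.27 passed (limma adjusted p = 0.0127), but not after scaling to equal totals (0.32, adjusted p = 0.295) nor within any letter pair (0.62, 0.62 and 1.09, adjusted p = 0.097, 0.144 and 0.0503). DCVC_LPS libraries had 21.9, 17.2, 18.4, 23.4, 54.1 and 25.6, against 10.5 to 21.3 in DCVC. That change was 0.49 ± 0.27 (adjusted p = 0.121) and passed with the letter as a block (0.0401). DCVC_LPS minus LPS was -0.34 ± 0.27 (adjusted p = 0.26). Within letters A and B it was -0.87 (adjusted p = 0.0249), and without DCVC_LPS library E it was -0.56 (adjusted p = 0.0484).

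MT1M, MT1G and MT1H had too few reads for the test. MT1M (56632233 to 56633986) was read in all 6 LPS libraries, at 15.9, 11.8, 18.1, 17.9, 12.0 and 31.3 normalized counts, while each of the other 18 libraries had at most 2.10. In reads, DCVC_LPS held 3, LPS 84, DCVC 0 and Control 3. The LPS level was 37.4 times that in Control with a 95% interval of 12.4 to 185, and the DCVC_LPS level was 0.0274 of that in LPS with an interval of 0.00553 to 0.0828; these exact intervals cover counting error only. Tested with no filter on level, MT1M rose in LPS minus Control (3.75 ± 0.29, adjusted p = 2.43e-11) and fell in DCVC_LPS minus LPS (-3.67 ± 0.29, adjusted p = 8.55e-11), folds that the pseudocount of 1 makes smaller. MT1G (56666731 to 56668065, minus strand) had 14.9, 8.87, 10.4, 13.1, 18.7 and 14.2 in LPS, against 4.20, 17.1, 3.79, 3.81, 7.29 and 6.33 in Control, overlapping through Control library B. It had 1.83, 7.53, 0.837, 4.17, 10.2 and 1.71 in DCVC_LPS and 4.26, 0.977, 3.24, 0, 7.11 and 3.57 in DCVC. With no filter on level MT1G fell in DCVC_LPS minus LPS (-1.68 ± 0.48, adjusted p = 0.00466), with 6 of 6 letters lower, and did not pass in LPS minus Control (0.97 ± 0.48, adjusted p = 0.0991) or in DCVC minus Control (-1.06 ± 0.48, adjusted p = 0.0883). MT1H (56669814 to 56671129) had 0 of 541482748 reads over all libraries, and a count of 0 allows up to 3 reads in that total.

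Summed over the 7 metallothionein genes, DCVC_LPS libraries A to F held 85.8, 76.3, 108, 163, 329 and 200 normalized counts, LPS libraries 997, 1019, 985, 1335, 1590 and 1729, DCVC libraries 70.7, 53.7, 45.4, 59.5, 109 and 76.7, and Control libraries 103, 147, 84.3, 88.3, 167 and 147. The LPS libraries thus stood apart from all others. MT2A made up 69.2 ± 10.7% of the sum in DCVC_LPS, 88.1 ± 2.34% in LPS, 40.6 ± 4.06% in DCVC and 36.1 ± 6.62% in Control. Per kilobase of exon, MT2A stood at 864 ± 218 normalized counts in LPS, where MT1E had 64.5 ± 38.9, MT1X 18.9 ± 6.85, MT1M 18.9 ± 7.60, MT1G 17.8 ± 4.65 and MT1F 11 ± 2.91. In Control the same quantity was 33.5 ± 9.03 for MT2A and 31.3 ± 16.8 for MT1E, a pair that does not differ beyond its spread. The exon length joins the exons of all annotated transcripts of a gene. For MT2A and MT1X (1299 and 1773 bases) it covers the whole gene, and for MT1E (1052 bases) only a part. Levels per kilobase of different genes thus rest on unlike lengths and are rough. Of the 17 MT genes and pseudogenes measured, 12 had any read. MT1A, not among the 10, had 0 reads in DCVC_LPS, 13 in LPS, 0 in DCVC and 3 in Control.

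**Figure D2:**
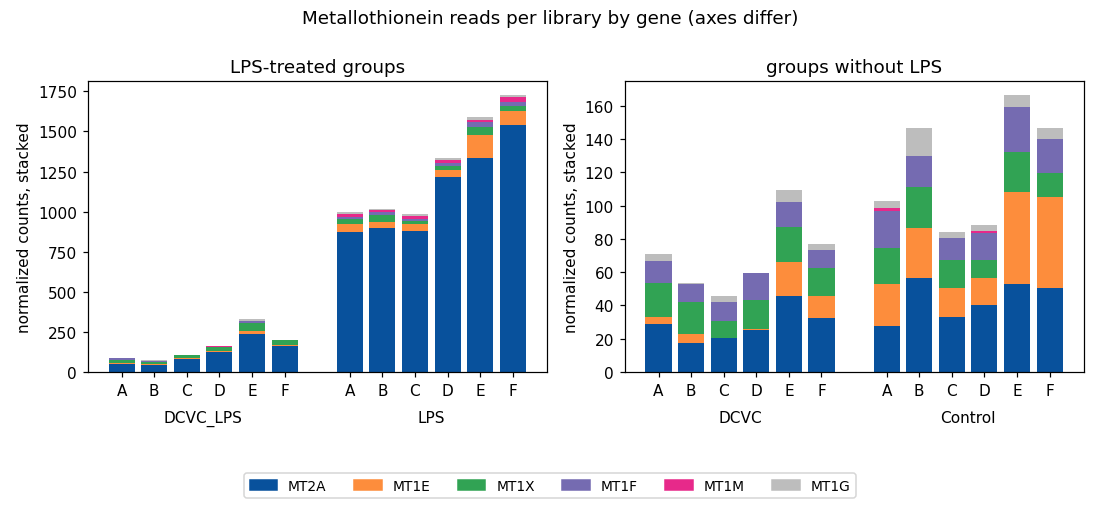
Normalized counts of the metallothionein genes stacked in each library, by replicate letter; the left panel shows DCVC_LPS and LPS and the right panel DCVC and Control, and the vertical axes differ. The DCVC_LPS bars reach 76.3 to 329, where the LPS bars reach 985 to 1729 and are mostly MT2A.

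Metallothionein genes resemble each other, and how the counting handled reads with several hits was not given in the sources used here. Of all 50-base windows of a gene's transcripts, the share also found in another MT gene was 16.5% for MT1G, 15.8% for MT1H, 9.87% for MT1M, 7.1% for MT1E, 3.64% for MT1X, 3.02% for MT2A and 1.22% for MT1F. These shares do not bound the error of a level: where a gene with many reads, such as MT2A in LPS, shares windows with one that has few, such as MT1G, the level of the low gene is the more uncertain. In GENCODE 29 MT1X also overlaps a transcript on its own strand, MTF1 a pseudogene on the other strand and SLC39A8 2 noncoding genes on its own strand, and its strand setting was not stated.

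The promoters of MT2A, MT1X, MT1H and SLC30A1 are shown because their windows hold the most metal response cores among the genes with an entry, a choice made on the motif and not on how the genes moved. MTF1 and SLC39A8, which also moved with LPS, have entries that are not printed. Sequences are from RefSeq on GRCh38.p14, 250 bases before to 50 after the transcript start, and 6 of the 10 genes had an entry. Capitals mark the metal response element core, TGCACNC or TGCGCNC, searched on both strands. The windows are chr16:56608334-56608633 (plus strand) for MT2A, chr16:56682220-56682519 (plus) for MT1X, chr16:56669564-56669863 (plus) for MT1H and chr1:211579112-211579411 (minus) for SLC30A1.
MT2A: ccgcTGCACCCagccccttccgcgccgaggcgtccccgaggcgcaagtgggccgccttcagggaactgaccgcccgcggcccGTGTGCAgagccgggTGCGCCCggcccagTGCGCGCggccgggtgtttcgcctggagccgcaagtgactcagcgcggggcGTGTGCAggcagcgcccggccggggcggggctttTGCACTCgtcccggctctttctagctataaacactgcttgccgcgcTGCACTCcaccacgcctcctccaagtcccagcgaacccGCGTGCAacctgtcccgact
MT1X: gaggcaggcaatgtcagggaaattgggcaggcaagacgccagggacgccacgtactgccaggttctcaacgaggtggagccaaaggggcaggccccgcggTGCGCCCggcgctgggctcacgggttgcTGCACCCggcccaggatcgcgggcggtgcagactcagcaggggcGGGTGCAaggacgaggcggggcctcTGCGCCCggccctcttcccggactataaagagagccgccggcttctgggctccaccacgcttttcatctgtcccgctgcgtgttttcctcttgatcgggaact
MT1H: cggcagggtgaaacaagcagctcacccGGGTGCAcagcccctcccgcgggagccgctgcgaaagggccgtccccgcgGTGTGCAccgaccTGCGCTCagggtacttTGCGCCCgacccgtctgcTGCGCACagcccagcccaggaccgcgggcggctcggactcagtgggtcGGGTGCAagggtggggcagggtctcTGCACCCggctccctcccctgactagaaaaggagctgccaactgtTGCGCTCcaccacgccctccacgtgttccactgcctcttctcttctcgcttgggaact
SLC30A1: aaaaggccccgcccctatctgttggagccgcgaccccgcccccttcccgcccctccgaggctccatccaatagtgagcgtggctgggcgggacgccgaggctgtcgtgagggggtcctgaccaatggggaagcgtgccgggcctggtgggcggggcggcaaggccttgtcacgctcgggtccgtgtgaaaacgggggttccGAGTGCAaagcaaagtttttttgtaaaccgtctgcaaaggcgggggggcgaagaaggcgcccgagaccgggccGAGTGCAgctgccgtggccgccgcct
MT2A and MT1H hold 8 cores each, MT1X holds 4 and SLC30A1 holds 2. Of 35116 RefSeq promoter windows of the same length, 29.6% hold at least 1 core, 8.6% at least 2, 0.601% at least 4 and 0.0199%, that is 7 windows, at least 8. The window of MTF1 holds none, and of 3 windows of SLC39A8 1 holds 1 core. The antioxidant response element core TGACNNNGC occurs once in each of the MT2A, MT1X and SLC30A1 windows and in 13.3% of all windows. These are matches of letters and not binding sites. Of the printed genes MT2A rose with LPS, SLC30A1 fell and MT1H had no reads. MT1X rose on the deposited scale and did not pass after equal totals. Whether the cores had a part in these levels was not tested.

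**Figure D3:**
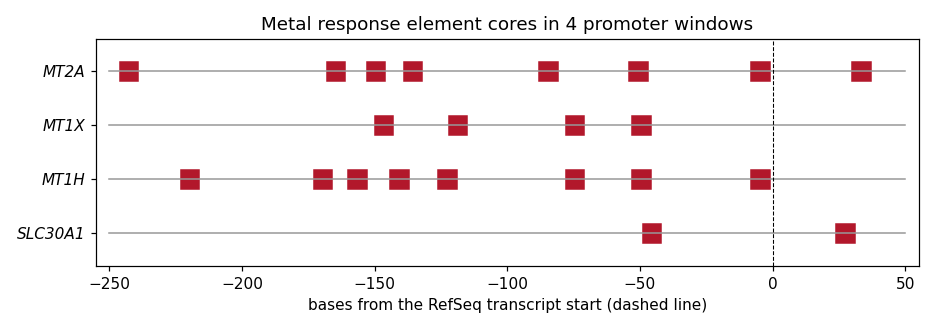
Position of each metal response element core (red boxes, drawn to scale) in the promoter windows of 4 genes, in bases from the RefSeq transcript start on the horizontal axis. MT2A and MT1H carry 8 cores, MT1X 4 and SLC30A1 2, with 1 core of SLC30A1 and 1 of MT2A after the start.

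SLC30A1, which exports zinc from the cytosol (chromosome 1, minus strand, 211571568 to 211578742), fell with LPS. It had 553, 591, 406, 383, 760 and 548 normalized counts in LPS libraries A to F, against 1939, 1833, 1744, 1937, 2622 and 2374 in Control. All LPS libraries lay below all Control libraries, and the mean was 540 ± 137 in LPS and 2075 ± 345 in Control (-1.96 ± 0.15, limma adjusted p = 1.07e-11). After DCVC the levels with and without LPS overlapped. DCVC_LPS libraries A to F had 1467, 1493, 1787, 1617, 2552 and 2060, against 2032, 1925, 1813, 1904, 2295 and 2474 in DCVC, lower for 5 of 6 letters with overlapping ranges. That change was -0.20 ± 0.15 (adjusted p = 0.252), and it passed after scaling to equal totals (-0.50, adjusted p = 0.0078) and within letters A and B (-0.42, adjusted p = 0.000121). Against LPS, the DCVC_LPS mean of 1829 ± 416 was 3.39-fold higher (1.77 ± 0.15, adjusted p = 1.66e-10). The interaction was 1.76 ± 0.21 (adjusted p = 3.96e-07), and 1.30, 2.09 and 1.89 within the letter pairs. DCVC alone left the level at 2074 ± 257, a change of 0.01 ± 0.15 (adjusted p = 0.976).

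SLC39A8, which imports zinc and other divalent metals (chromosome 4, minus strand, 102251041 to 102431258), had 1438, 1335, 1436, 1303, 1454 and 2011 normalized counts in LPS libraries A to F, against 704, 686, 1068, 1040, 982 and 1064 in Control. The LPS libraries lay above all Control libraries (0.70 ± 0.12, limma adjusted p = 1.11e-05), but after scaling to equal totals the change was 0.23 (adjusted p = 0.0876). DCVC_LPS libraries had 1070, 1086, 994, 959, 842 and 846, all below all LPS libraries (-0.62 ± 0.12, adjusted p = 6.71e-05). This too missed the threshold after equal totals (-0.19, adjusted p = 0.154), where the ranges overlapped in both comparisons. DCVC_LPS minus DCVC was 0.13 ± 0.12 (adjusted p = 0.362) and passed within letters A and B (0.27, adjusted p = 0.0108). The interaction was -0.57 ± 0.17 (adjusted p = 0.00825), -0.39 after equal totals (adjusted p = 0.0607) and -0.66 within letters E and F (adjusted p = 0.0777). DCVC libraries A to F had 957, 836, 949, 954, 899 and 706, a change of -0.05 ± 0.12 from Control (adjusted p = 0.752). Within letters A and B, whose Control libraries are the lowest, it was 0.36 (adjusted p = 0.00137), and within C and D and within E and F it was -0.15 and -0.36.

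**Figure D4:**
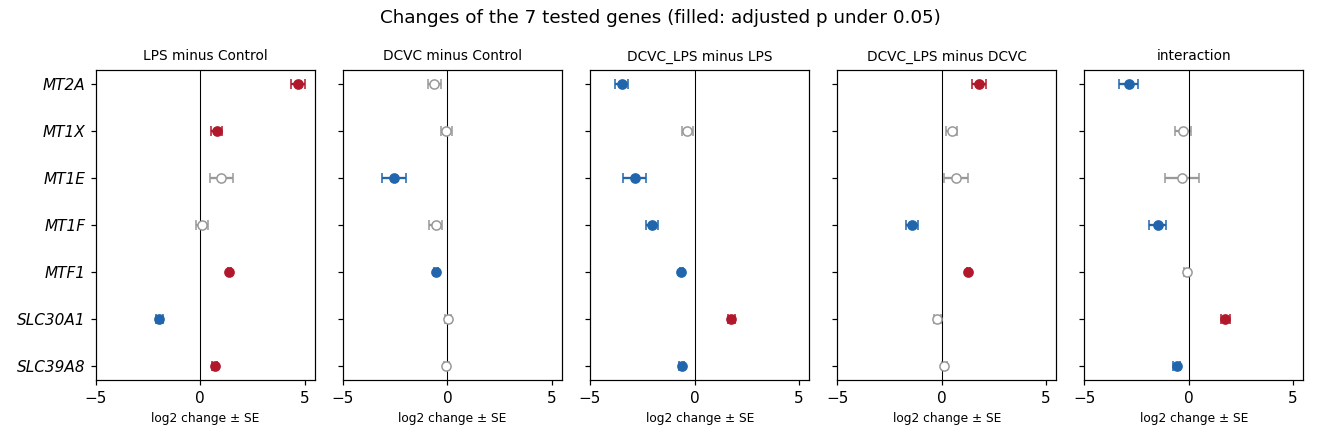
Log2 change ± SE of the 7 tested genes in each comparison, with the interaction, the LPS change with DCVC minus that without it, on the right; red and blue filled points passed upward and downward, and open grey points did not pass. The LPS changes of MT2A and SLC30A1 lie at 4.67 and -1.96, and their interactions at -2.87 and 1.76.

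Beside these 10, the other zinc transporters moved in both directions. Of 10 other zinc exporters 5 were tested, and LPS raised 2 (SLC30A7 and SLC30A5, which load zinc into the secretory pathway) and lowered 2 (SLC30A6 and SLC30A9). The rise of SLC30A5 did not pass after equal totals, and SLC30A4 newly fell there (-0.72, limma adjusted p = 0.0364). SLC30A7 had 2762 ± 417 normalized counts in LPS and 945 ± 61.2 in Control (1.53 ± 0.08, limma adjusted p = 7.37e-15), and 1630 ± 131 in DCVC_LPS against 966 ± 51.6 in DCVC (0.75 ± 0.08, adjusted p = 1.52e-08). Of 13 other importers 10 were tested, and LPS raised 3 and lowered 3 (37.8% and 40.6% of all genes rose and fell). After equal totals SLC39A4, SLC39A9 and SLC39A10 newly fell, by 0.42, 0.34 and 0.67 on the log2 scale (limma adjusted p at most 0.00141). SLC39A14, which encodes the importer ZIP14, had 19970 to 37493 normalized counts in LPS with a median of 30938, against 708 to 3926 with a median of 1637 in Control. Its LPS change was 4.11 ± 0.28 (adjusted p = 8.41e-13). After DCVC it still rose with LPS, to 4499 ± 365 in DCVC_LPS against 538 ± 113 in DCVC (3.08 ± 0.28, adjusted p = 6.14e-10). SLC39A14 was lower, at 4499 ± 365 in DCVC_LPS, against 29480 ± 6843 in LPS (-2.68 ± 0.28, adjusted p = 4.87e-09), and at 538 ± 113 in DCVC, against 1966 ± 1233 in Control (-1.65 ± 0.28, adjusted p = 1.69e-05).

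SLC39A6, another importer, had 2225 ± 190 normalized counts in LPS and 795 ± 83.01 in Control (1.49 ± 0.08, limma adjusted p = 4.19e-15), and 1042 ± 107 in DCVC_LPS against 837 ± 46.8 in DCVC (0.31 ± 0.08, adjusted p = 0.00102; not passed after equal totals). Its interaction was -1.18 ± 0.11 (adjusted p = 6.11e-09). SLC39A11, SLC39A3 and SLC39A1 fell with LPS, by 1.07, 0.80 and 0.61 on the log2 scale. SLC39A7 rose by 0.46 with LPS, and its sign turned after scaling to equal totals. In DCVC minus Control, 2 of 5 exporters rose (SLC30A6 and SLC30A5) and 1 fell (SLC30A4). On the deposited scale 0 of 10 importers rose and 4 fell, SLC39A1, SLC39A13 and SLC39A14 among them. Over all genes 27.5% rose and 32.2% fell. After equal totals, where 6412 of 13900 genes rose, the 4 importers still fell. SLC39A3, SLC39A4, SLC39A6, SLC39A7, SLC39A9 and SLC39A11 then rose, by 0.41, 0.26, 0.33, 0.36, 0.31 and 0.38 (limma adjusted p at most 0.0406). The exporter SLC30A7 then rose too (0.28, adjusted p = 0.00183). In DCVC_LPS minus LPS, 2 exporters rose and 2 fell, and 2 importers rose and 6 fell (33.3% and 39.4% of all genes). Of the 6 importers 3, SLC39A1, SLC39A4 and SLC39A13, did not pass after equal totals. SLC39A7, SLC39A9 and the exporter SLC30A9 newly rose there, by 0.35, 0.51 and 0.52 (limma adjusted p at most 8.48e-06). In DCVC_LPS minus DCVC, 2 exporters rose and 1 fell, and 4 importers rose and 5 fell (29.9% and 32.2% of all genes). Of these, 1 exporter and 3 importers did not keep their call after equal totals, where SLC30A9 newly fell (-0.31, limma adjusted p = 0.000788). The interaction passed for 2 of 5 exporters and 5 of 10 importers, with SLC39A14 at -1.03 ± 0.39 (adjusted p = 0.0332), and for 8 of the 10 importers with the letter as a block. Among all genes it was above 0 for 22% and below 0 for 23.7% without the block. With the block it was above 0 for 3917 and below 0 for 3924 of 13900 genes. The interactions of SLC39A14 and SLC39A4 did not pass after equal totals. Those of SLC30A9, SLC39A1 and SLC39A13 newly passed there, at 0.38, 0.39 and 0.50 (limma adjusted p at most 0.0225).

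**Figure D5:**
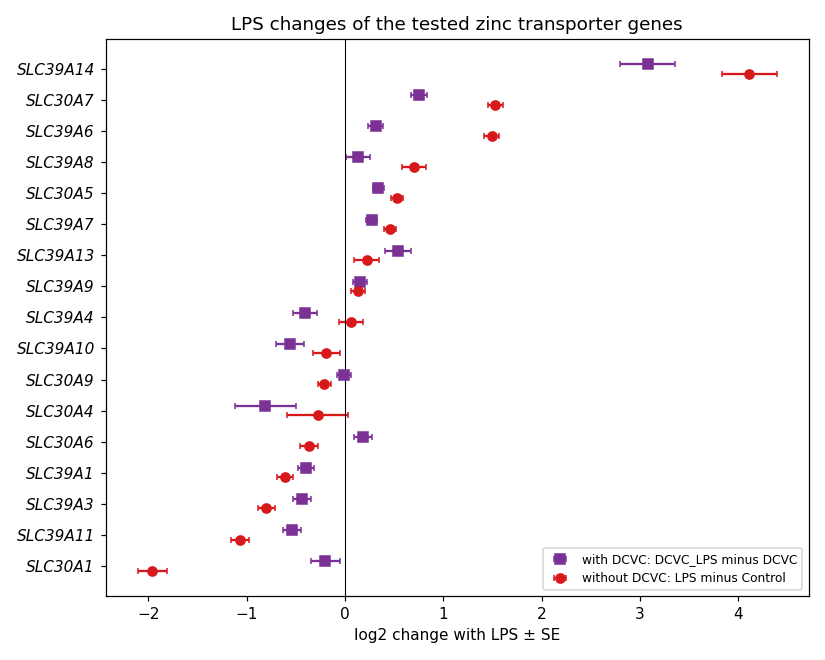
Log2 change with LPS ± SE of the 17 tested SLC30 and SLC39 zinc transporter genes; purple squares are DCVC_LPS minus DCVC and red circles LPS minus Control. SLC39A14 lies farthest right in both, and SLC30A1 lies at -0.20 in DCVC_LPS minus DCVC and -1.96 in LPS minus Control.

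Metallothioneins also bind copper, and of 10 copper-handling genes 9 were tested. LPS raised 4 and lowered 4 (37.8% and 40.6% of all genes), and 6 of the 8 kept their call after equal totals, with ATOX1 and COX17 losing it. ATP7B newly fell there (-0.75, limma adjusted p = 0.00125). ATP7A, the copper-exporting ATPase, fell by 1.76 on the log2 scale, the copper importer gene SLC31A1 fell by 1.32 and CCS, the copper chaperone of superoxide dismutase, fell by 0.79, while SCO1, which delivers copper to cytochrome oxidase, rose by 1.20 ± 0.09 (limma adjusted p = 5.59e-12). In DCVC_LPS minus DCVC, 3 rose and 5 fell (29.9% and 32.2% of all genes), with ATP7A at -0.71 ± 0.10 (adjusted p = 8.18e-07), and ATOX1 and SCO1 did not pass after equal totals. The interaction of ATP7A was 1.04 ± 0.14 (adjusted p = 1.58e-06). DCVC alone raised 2 and lowered 3 (27.5% and 32.2% of all genes), of which ATOX1 did not pass after equal totals. CCS and COMMD1 newly rose there (0.37 and 0.25, limma adjusted p = 0.000383 and 0.0324). In DCVC_LPS minus LPS 4 rose and 4 fell (33.3% and 39.4% of all genes), and COMMD1 and SCO1 did not pass after equal totals. COX17 newly passed there with its sign turned (0.26, limma adjusted p = 0.0231, against -0.17 on the deposited scale). Over the exporters, importers and copper genes and all 5 tests, the letter as a block ended 0 calls and added 11. The median LPS change of the copper genes was -0.29, of the exporters -0.21 and of the importers 0.10, against -0.03 over all genes.

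The genes whose levels ran most like a member were taken by Pearson correlation of log2(normalized count + 1) over 24 libraries among 11406 genes, a description in which the 4 groups set most of the value. CCL1, a chemokine gene, was closest to MT2A (r = 0.982) with 8.21 normalized counts on average in DCVC_LPS, 415 in LPS, 0 in DCVC and 0.805 in Control. TRMT1 and PFDN2 were among the next (r = 0.971 and 0.970). HIVEP3 was closest to MTF1 (r = 0.984), before TRA2B, SRSF6, SNHG16 and GPR132. OMA1, a mitochondrial protease gene, was closest to SLC30A1 (r = 0.968) with 384 in DCVC_LPS, 201 in LPS, 446 in DCVC and 406 in Control, and C22orf46, MRFAP1L1 and MBD4 were among the next. USP15 was closest to SLC39A8 (r = 0.920), before ELF1, HDAC2, CTNNB1 and DUSP22.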

How the data were processed

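The 24 libraries were grouped by their treatment labels. The values are a signal, normalized counts: whole reads that the authors divided by 1 factor per library before they deposited them, as read from the values. For values above 0, 100% were whole reads within 0.1 read. Per the submitters' processing notes, the authors' tools included STAR, featureCounts 1.6.1 and DESeq2 1.24.0, and the build was hg38. No annotation, strand setting or rule for reads with several hits was given in the sources used here.

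Of 58381 entries, 19595 (33.56%, with 0.99% of the values) carry no gene name and stayed out, and the values of 51 symbols on 2 entries were summed. Genes averaging 10 or more (13900) were tested on log2(value + 1) in R 4.3.3 with limma 3.58.1 (trended empirical Bayes, 24 libraries in 1 fit, 20 residual degrees of freedom). The pseudocount makes changes of low genes smaller. The script was tested on simulated data. Alternatives used other pseudocounts and filters, equal totals, only the compared groups, letter pairs, the letter as a block, single libraries left out, and edgeR 4.0.16 and DESeq2 1.42.0 on the recovered reads.

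The letters come from the sample titles. All 36 correlations between same-letter libraries of different groups, taken on deviations from group means, were above 0.1 (0.13 to 0.54), which meets the rule for letters that pair the samples. The main test holds no letter term, and the fit with the letter as a block is an alternative whose values stand beside the calls it changes. Correlations with the other letter of the pairs A and B, C and D, and E and F ran from 0.05 to 0.46, and with other letters from -0.45 to 0.03. Of the 36 with the other letter of the pair, 35 were above 0.1 too (median 0.29, against 0.33 for the same letter). By this measure 18 of the 24 libraries were most like their own letter. The rule thus does not tell letters from these pairs of letters. The main test and the counts of letters, such as 6 of 6, take the 6 libraries of a group as separate. Whether libraries of a pair are independent was not tested, so fewer than 6 per group may be.

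All 10 members are named, and from each list of other transporters and copper genes up to 3 raised and 3 lowered genes with the smallest adjusted p per comparison. The 5 most alike genes were sought for the 4 members MT2A, MTF1, SLC30A1 and SLC39A8 among genes with a mean of at least 50. A few of the genes and markers these rules take are not reported here. The members and lists were chosen with earlier results of these data known.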

Additional observations from a re-analysis of the deposited data

Results flagged for a closer look

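Within the groups of 6 libraries, 5 of 35 groups tested held a library far from the others. The rule marks about 1 group in 20 by chance only for independent values with a normal spread. Some of these counts come from a few reads, and libraries resemble each other by letter, so that rate is no yardstick here. SLC39A8 in LPS library F was 2010.5 normalized counts, against 1454 in the nearest LPS library. MT1X in DCVC_LPS library E was 54.1, against 25.6 in the nearest. MT1M in LPS library F was 31.3, against 18.1. MT1G in Control library B was 17.1 from 20 reads, against 7.29. MT1M in Control library A was 2.10 from 2 reads, against 0.761.

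The LPS change with DCVC differed from the LPS change without it, by the interaction test, for 4 of the 7 tested genes. Among all 13900 tested genes the interaction passed above 0 for 22% and below 0 for 23.7%. The difference was -2.87 for MT2A, -1.48 for MT1F, 1.76 for SLC30A1 and -0.57 for SLC39A8 on the log2 scale, with limma adjusted p of 1.7e-05, 0.00425, 3.96e-07 and 0.00825.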

How the results depend on the processing

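For the 7 tested genes, 35 results were recomputed under 902 alternatives in all. Direction and side of the threshold were kept in 839, the threshold was lost in 13, newly passed in 23, and the sign turned in 27; the sign turned for 0 of the 20 results that passed. Scaling to equal totals left 33 of 40 group levels within 1 SD. These include the levels of 0, of MT1H and of MT1M in DCVC, which scaling cannot move. Among the levels that moved were those of MTF1 in LPS (4232 to 3242) and in DCVC (1123 to 1424). Equal totals changed the counts of all genes to 3118 raised by LPS, 6412 raised and 2790 lowered by DCVC, 7578 raised and 3051 lowered in DCVC_LPS minus LPS, 2263 raised and 7322 lowered in DCVC_LPS minus DCVC and 4600 interactions above 0, against 5253, 3820, 4478, 4633, 5478, 4160, 4475 and 3053 on the deposited scale. LPS then lowered 8275 genes, against 5639. With equal totals 2 of the 7 genes rose with LPS and 2 fell in DCVC_LPS minus DCVC, and values with a turned sign were -0.39 for MT1F with LPS, 0.17 for MT1X and 0.20 for SLC39A8 with DCVC, 0.07 for MT1X in DCVC_LPS minus LPS, -0.17 for SLC39A8 in DCVC_LPS minus DCVC and 0.09 for the interaction of MTF1. Within letters A and B the sign turned for MT1F with LPS (-0.25), SLC39A8 with DCVC (0.36, so that 1 gene rose) and MT1X in DCVC_LPS minus DCVC (-0.04); within C and D for MT1X with DCVC (0.00) and MT1E in the interaction (0.93); within E and F for MT1X (0.03) and SLC30A1 (-0.07) with DCVC and MT1E in DCVC_LPS minus DCVC (-0.24). Letters E and F alone gave 2294 genes raised by DCVC and 1281 and 1578 interactions above and below 0, with 1 of the 7 genes lowered by DCVC, 0 lowered in DCVC_LPS minus DCVC and 1 interaction below 0. Over all 13900 genes, 3301 were then lowered by DCVC and 3496 in DCVC_LPS minus DCVC. A mean of at least 50 removes MT1E, MT1F and MT1X and left 1 lowered by DCVC, 3 in DCVC_LPS minus LPS and 0 in DCVC_LPS minus DCVC. Of the 11410 genes then tested, 3946, 4837 and 3822 were lowered in these comparisons. With the replicate block, and with only the 2 groups fitted, 4 of the 7 genes fell with DCVC, where 5105 and 4412 of all 13900 genes fell. The block changed no calls of the 7 genes other than those given beside them. Leaving out single libraries gave -0.04 to 0.15 for MT1F with LPS, -0.20 to 0.07 for MT1X, -0.05 to 0.08 for SLC30A1 and -0.13 to 0.02 for SLC39A8 with DCVC, and -0.79 to 0.10 for the interaction of MT1E. On the recovered reads edgeR called 5263 genes raised and 5581 lowered by LPS, and DESeq2 5222 and 5662. Fewer libraries or genes enter the letter pairs and the stricter filter, and for the other settings the cause was not tested. Depth limits MT1F, MT1X, MT1G and MT1M, which had 22 to 173 reads per group where they were read above the floor. Depth also limits MT1E, with 49 reads in DCVC and 55 in DCVC_LPS, against 316 in LPS and 211 in Control. The promoter windows without the 50 bases after the start changed the core count in 2 windows.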
